A study of Caenorhabditis elegans with 12 samples.

Results

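The genes described here are lin-42, the period homolog of Caenorhabditis elegans, and 7 regulators of the moulting cycle and of oscillating transcription in the epidermis: kin-20, nhr-23, nhr-25, grh-1, blmp-1, bed-3 and elt-3. They were chosen by exact gene name, and these 8 genes of the 46711 entries shared by both count tables each had a row in both. RNA came from whole larvae at the mid L4 stage, grown at 20 °C and harvested 45 h after feeding, in 12 libraries with 3 per group, lettered A to C. Strain VT3878 served as the U13A mutant; its genotype is let-7(ma432) with lin-41(tn1541ma480), and ma432 is a let-7 microRNA substituted at position 13 of its mature sequence. Its control was strain DG3913 with lin-41(tn1541), so the altered lin-41 locus of tn1541 was shared by both, while the ma480 change in lin-41 was present in the mutant alone. For U18A the mutant was strain VT3797 with let-7(ma435) and the transgene maIs105, the microRNA being substituted at position 18. Its control was strain VT1367 with maIs105, so mutant and control shared that transgene. The labels describe the U13A mutant as having what lies downstream of lin-41 excluded, and a U13A difference therefore cannot be assigned to the let-7 substitution alone. Each mutant was compared with its own control, which asks how a let-7 microRNA altered outside its seed changes the regulators of the moulting cycle.

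Nematode larvae replace their cuticle at the end of each larval stage, and the epidermal genes that build and shed it are switched on and off in step with each moult. lin-42 is related to the period genes of the circadian clock, its transcript rises and falls with each larval stage, and it restrains the transcription of microRNA genes that include let-7. let-7 in turn is known to limit moulting in late development through nhr-23 and nhr-25, nuclear receptors that promote it. The other members act in the same tissue: kin-20 encodes a casein kinase of the family that phosphorylates period proteins, grh-1 a Grainyhead factor, blmp-1 a zinc finger factor related to Blimp1 that opens chromatin at oscillating genes, bed-3 a BED-type zinc finger factor needed for moulting, and elt-3 an epidermal GATA factor.

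Libraries held 16659340 to 21414080 counts for U13A and 6107652 to 9607239 for U18A, but protein-coding genes received 1626806 to 4017697 counts per U13A library and 3414238 to 5621988 per U18A library. Levels are given as CPM, a count divided by the library total and rescaled by trimmed mean of M values (TMM), and are compared within a table only. U13A control C stood apart, with 8.85% of its counts in protein-coding genes and a TMM factor of 0.577. All 45 genes on the lists of markers for epidermis, neurons, body wall muscle, pharynx, intestine and germline and of steady reference genes had counts above 0 in every library. The counts carry no allele, and let-7 itself had 8 to 85 counts in U13A libraries and 19 to 2494 in U18A libraries from libraries not made for small RNA, so they do not check the substitutions. The let-7 count of 2494 was that of U18A control B, and no other U18A library exceeded 73. The cause of that count was not tested. In whole larvae, fewer cells of a type and less RNA per cell cannot be told apart. Nothing in the labels says that replicates came from separate cultures, so the tests measure the spread between these samples, which may be technical.

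In WBcel235 (Ensembl release 115), used for positions because the authors' build is not given in the sources used here, lin-42 (WBGene00018572) lies on chromosome II at 1233236 to 1252359 on the minus strand. kin-20 (WBGene00002203, chromosome X, 15268602 to 15277764, minus strand) shares its chromosome with nhr-25 (WBGene00003623, 13008493 to 13013964, plus strand) and elt-3 (WBGene00001251, 13934874 to 13941216, plus strand). nhr-23 (WBGene00003622, 7214745 to 7221299, plus strand), grh-1 (WBGene00001707, 1258201 to 1268155, minus strand) and blmp-1 (WBGene00003847, 10409302 to 10414773, plus strand) lie on chromosome I, and bed-3 (WBGene00009133, 9916524 to 9921967, plus strand) lies on chromosome IV. All 8 are annotated as protein-coding. nhr-23, grh-1 and blmp-1 overlap no other annotated gene. The small noncoding genes that overlap lin-42, kin-20, nhr-25, bed-3 and elt-3 had at most 8 counts in any library. bed-3 also overlaps the end of the antisense gene dur-1 by 30 bases, and dur-1 had up to 400 counts in a library. Whether counting used strand is not given in the sources used here, so reads from that stretch cannot be told apart.

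Divided by exonic length, lin-42 and kin-20 had the highest mean levels of the 8 transcripts in each group, and nhr-25, bed-3 and grh-1 the lowest. In U18A mutants the mean levels per kilobase ran from lin-42 at 26.7 ± 3.38 CPM and kin-20 at 23.2 ± 1.73 CPM through nhr-23, elt-3 and blmp-1 to bed-3 at 2.87 ± 0.293, grh-1 at 2.17 ± 0.527 and nhr-25 at 0.673 ± 0.252 CPM (SD, n = 3). In U18A controls the order was the same, from lin-42 at 51.4 ± 10.4 CPM and kin-20 at 30.9 ± 2.31 CPM per kilobase down to nhr-25 at 0.736 ± 0.422 (SD, n = 3). Library values of lin-42 and kin-20 overlapped in the U18A mutants but not in the U18A controls, while those of bed-3 and grh-1 overlapped in both. In the U13A table kin-20 came first, at 8.49 ± 1.47 CPM per kilobase in mutants and 14.3 ± 7.19 in controls, and lin-42 followed at 5.64 ± 1.43 in mutants and 6.41 ± 0.555 in controls (SD, n = 3 each). Among the U13A mutants the library values of lin-42 overlapped those of elt-3, and in both U13A groups those of elt-3 overlapped those of nhr-23. The lowest pair there was nhr-25 and bed-3, whose library values overlapped in both U13A groups. nhr-25 had 6 to 32 counts in U13A libraries and 7 to 21 in U18A libraries, so its estimates are imprecise throughout.

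In the U18A mutant, transcripts of 5 of the 8 regulators fell: lin-42, kin-20, grh-1, blmp-1 and bed-3. Mean levels of the 5 were 45.8% to 75.1% of the control mean, with grh-1 lowest and kin-20 highest, and no value of a mutant library overlapped a control library for any of them. nhr-23, nhr-25 and elt-3 did not pass the test, and no member rose. Over all 12689 genes tested, 8.16% passed an adjusted p of 0.05 and 5.88% passed as lower, while 14.8% had every mutant library below every control. The median log2 ratio, the log2 fold change of mutant over control, was -0.52 over the 8 members and 0.01 over all genes. The members were chosen with earlier results of these data known, so the shares over all genes stand beside them as a description. All libraries were harvested 45 h after feeding, so each group was seen at a single time. Whether mutant and control stood at the same point of the moulting cycle was not tested.

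Among the clock homologs, lin-42 had 111, 118 and 92.0 CPM in U18A mutants A to C, against 251, 199 and 168 CPM in the controls. Every mutant library was below every control library, and the control libraries themselves spanned a wider range than the mutants. The log2 ratio of lin-42 was -0.95 (SE 0.14, edgeR adjusted p 0.00272), and without mutant C it was -0.85 with an adjusted p of 0.0748. kin-20, the casein kinase gene, had 77.1, 76.8 and 67.5 CPM in the U18A mutants, against 105, 98.5 and 90.7 CPM in the controls. Its groups were close but separate, and its log2 ratio of -0.41 (SE 0.09, edgeR adjusted p 0.0055) was the smallest of the 5. With the spread estimated from all 12 libraries, the edgeR adjusted p of kin-20 was 0.547 at a log2 ratio of -0.42. Those libraries include U13A control C, with 71.9 CPM of kin-20 against 33.3 and 31.5 CPM in U13A controls A and B. The part of that library in the estimate was not tested. kin-20 had an adjusted p under 0.05 in 14 of the 15 alternative settings of the U18A contrast.

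Among the transcription factors, grh-1 had 7.20, 7.80 and 4.77 CPM in the U18A mutants, against 16.2, 14.7 and 12.3 CPM in the controls. The log2 ratio of -1.15 (SE 0.19, edgeR adjusted p 6.3e-04) was the largest in size among the members. bed-3 had 6.91, 6.78 and 5.71 CPM in mutants and 15.2, 10.4 and 12.6 CPM in controls, so each mutant library lay below the lowest control. It fell by 0.99 on the log2 scale (SE 0.18, edgeR adjusted p 0.00135). blmp-1 had 25.2, 26.97 and 24.1 CPM in mutants, against 46.1, 38.1 and 32.98 CPM in controls. The mutants were tightly grouped below the controls, and blmp-1 fell by 0.62 (SE 0.12, edgeR adjusted p 0.00274). grh-1, bed-3 and blmp-1 passed in all 15 alternative fits of the U18A contrast.

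nhr-23, the receptor that drives moulting, had 37.7, 42.4 and 42.8 CPM in the U18A mutants, against 46.4, 40.997 and 39.6 CPM in the controls. Its groups overlapped, and the log2 ratio of -0.04 had a 95% interval of -0.25 to 0.16. That interval does not reach the estimate of any of the 5 members that fell, but it overlaps the kin-20 interval of -0.60 to -0.23. elt-3 had 20.4, 20.4 and 19.9 CPM in mutants and 17.0, 20.4 and 17.5 CPM in controls, with overlapping groups and a log2 ratio of 0.15 (95% interval -0.10 to 0.40, adjusted p 0.523). nhr-25, the receptor related to Ftz-F1, had 2.45, 1.19 and 1.56 CPM in mutants and 3.13, 1.08 and 1.47 CPM in controls. Its log2 ratio of -0.10 had a 95% interval of -0.95 to 0.75, so a fall as large as that of blmp-1 was not excluded.

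**Figure D1:**
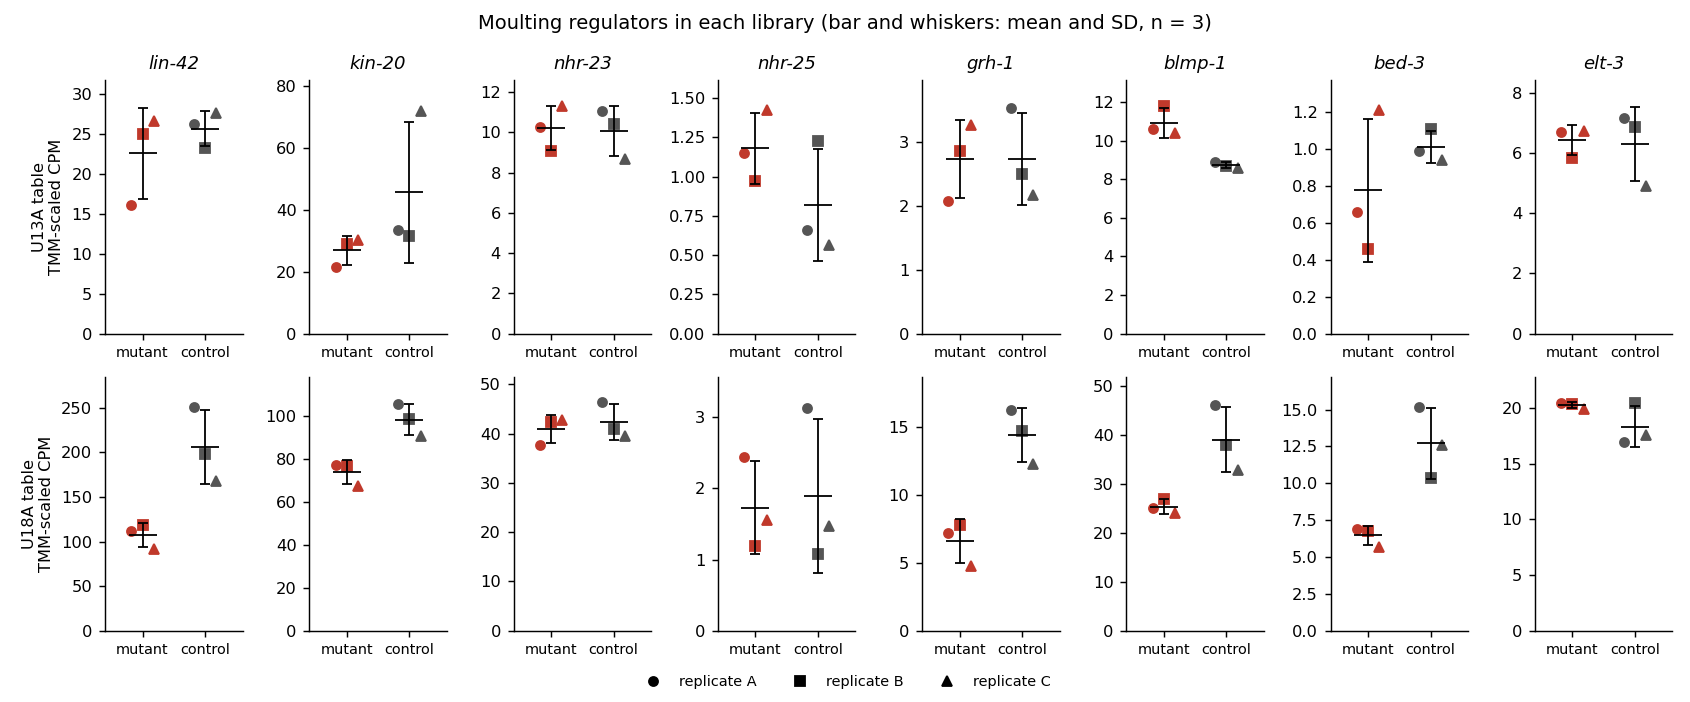
TMM-scaled CPM of each regulator in every library, with the U13A table above and the U18A table below; points are libraries (circle A, square B, triangle C), and bars and whiskers are the mean and SD of 3 libraries. In the U18A row the mutant libraries of lin-42, kin-20, grh-1, blmp-1 and bed-3 lie below all controls, whereas those of nhr-23, nhr-25 and elt-3 overlap them, and in the U13A row the kin-20 value of control C (71.9 CPM) stands far above the other libraries.

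The control libraries of the U18A table differed among themselves. Control A was the highest of the 3 for 7 of the 8 members and the lowest for elt-3, and control C was the lowest for lin-42, kin-20, nhr-23, grh-1 and blmp-1. Among the U18A mutants, C was the lowest for 6 members, including all 5 that fell, and the highest for nhr-23. What sets these libraries apart was not tested. Summed over the 7 epidermis markers, levels were 768 to 858 CPM in U18A mutants and 892 to 1110 CPM in the controls. Most of each sum came from vab-10, with means of 662 CPM in mutants and 748 CPM in controls. Of the 7 markers dpy-7, rol-6 and che-14 were called lower, where 5.88% of all genes were. The epidermal fate factors lin-26 and elt-1 had log2 ratios of 0.16 and -0.18 and did not pass, nor did vab-10 and ajm-1. Neuron markers summed to 93.2 to 95.5 CPM in mutants and 89.7 to 91.2 CPM in controls, and 0 of 6 passed. The summed levels of body wall muscle, pharynx, intestine and germline markers overlapped between the U18A groups. In the U13A table intestine markers summed to 223 to 231 CPM in mutants and 237 to 247 CPM in controls, the other sums overlapped, and 0 markers of any of these tissues passed. The part of these differences in the members' values was not tested.

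In the U13A mutant none of the 8 regulators passed the test with edgeR or DESeq2, where 1.55% of 12044 genes passed with edgeR, and 1 of 8 members, blmp-1, had an unadjusted p under 0.05, as did 1513 of the 12044 genes. The median log2 ratio was -0.02 over the members and -0.01 over all genes. blmp-1 had 10.6, 11.8 and 10.4 CPM in U13A mutants A to C, against 8.91, 8.70 and 8.58 CPM in the controls. Each mutant library was above each control, a separation in either direction seen in 19.1% of all genes tested, and the log2 ratio was 0.32 (SE 0.13, 95% interval 0.05 to 0.59, edgeR adjusted p 0.294). lin-42 had 16.1, 25.0 and 26.7 CPM in mutants and 26.2, 23.3 and 27.6 CPM in controls. Mutant A alone lay below the controls, and the log2 ratio was -0.18 (95% interval -0.56 to 0.19, edgeR adjusted p 0.714). This interval does not reach the lin-42 estimate of the U18A contrast, but the difference between the contrasts did not pass (edgeR adjusted p 0.161).

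grh-1 had 2.07, 2.86 and 3.26 CPM in U13A mutants and 3.54, 2.49 and 2.17 CPM in controls, with overlapping groups. Its log2 ratio was -0.04 (95% interval -0.55 to 0.47, adjusted p 0.963). nhr-23 had 10.3, 9.10 and 11.3 CPM in mutants and 11.1, 10.4 and 8.67 CPM in controls, with a log2 ratio of 0.01 (95% interval -0.29 to 0.32). The groups of elt-3 also overlapped, at 6.71, 5.84 and 6.74 CPM in mutants and 7.17, 6.86 and 4.90 CPM in controls, with an interval of -0.35 to 0.35. bed-3 had 15, 8 and 23 counts in mutants and 21, 29 and 10 in controls, and nhr-25 had 26, 17 and 27 counts in mutants and 14, 32 and 6 in controls. The log2 ratio was -0.40 for bed-3, with a 95% interval of -1.15 to 0.34 that includes its U18A estimate, and 0.43 for nhr-25, with an interval of -0.27 to 1.13.

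**Figure D2:**
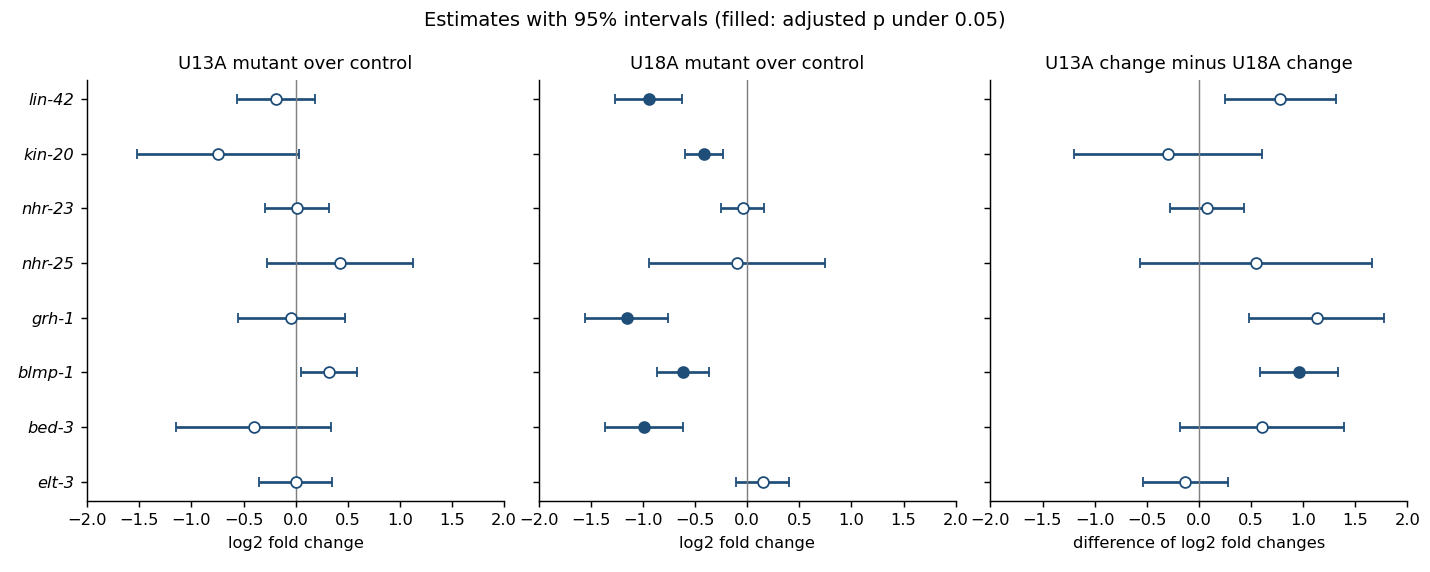
Estimates for each regulator with 95% intervals in the U13A contrast, the U18A contrast and the difference between them, on the log2 scale; filled points passed an adjusted p of 0.05. Filled points lie below 0 for 5 members in the U18A contrast, no point is filled in the U13A contrast, and blmp-1 is the filled point of the difference at 0.96.

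kin-20 had 21.6, 28.9 and 30.3 CPM in U13A mutants A to C, against 33.3, 31.5 and 71.9 CPM in the controls. Each mutant lay below each control, where 19.1% of all genes tested had groups that did not overlap in either direction. Control C was far above the other 2 controls, and the log2 ratio of -0.74 (SE 0.33, 95% interval -1.52 to 0.03, edgeR adjusted p 0.426) did not pass. Without control C the log2 ratio was -0.27 (SE 0.13, adjusted p 0.353). In raw counts kin-20 was nearly level across the U13A controls, at 706, 821 and 763, whereas lin-42 had 556, 607 and 293 and blmp-1 189, 227 and 91. Over 6337 nuclear protein-coding genes with at least 50 counts in controls A and B, the count in control C was a median of 0.44 of the mean of A and B. For kin-20 this ratio was 0.999, above 99.4% of those genes, and for the other 7 members it ran from 0.261 for nhr-25 to 0.504 for lin-42. nhr-25 and bed-3 were below the 50-count minimum in both controls, and the nhr-25 ratio rested on 6 counts in control C. The cause was not tested.

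**Figure D3:**
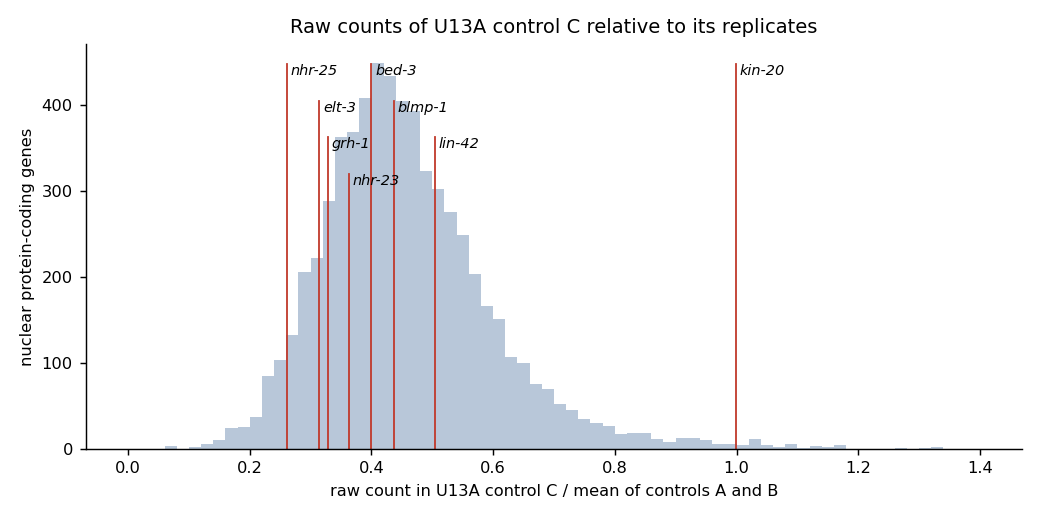
Distribution over 6337 nuclear protein-coding genes of the raw count in U13A control C divided by the mean of controls A and B, with the 8 regulators marked by vertical lines. Apart from kin-20 at 0.999, the regulators lie between 0.261 and 0.504, around the median of 0.44.

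The difference between the contrasts was tested directly in a fit to all 12 libraries, in which 1.96% of 14155 genes passed. Of the 8 members 1 passed: for blmp-1 the U13A change exceeded the U18A change by 0.96 on the log2 scale (SE 0.18, 95% interval 0.59 to 1.33, edgeR adjusted p 0.00348). It was above the controls in 3 of 3 U13A mutants and below them in 3 of 3 U18A mutants, and passed under all 20 alternative settings. The difference for grh-1 was 1.13 (95% interval 0.48 to 1.78, adjusted p 0.0674) and for lin-42 0.78 (95% interval 0.25 to 1.32, adjusted p 0.161), and neither passed. Without U13A mutant A both did, with adjusted p of 0.0409 for grh-1 and 0.0148 for lin-42, and without U13A control A grh-1 did (adjusted p 0.0282). Without the count filter both passed, with adjusted p of 0.0051 for grh-1 and 5.1e-04 for lin-42. For bed-3 the difference was 0.61, for nhr-25 0.55, for nhr-23 0.08, for elt-3 -0.13 and for kin-20 -0.30, each with a 95% interval that included 0. For the 7 members other than blmp-1, a difference between the mutants was not shown after adjustment.

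Likeness to lin-42 is given as a description. Over the 6 U18A libraries, lin-42 levels on the log2 CPM scale had a Pearson r of 0.993 with kin-20, 0.991 with blmp-1, 0.979 with grh-1 and 0.953 with bed-3, and of 0.421 with nhr-23, 0.250 with nhr-25 and -0.658 with elt-3. The 6 libraries share the separation of mutant and control, so high values follow for the members called in that contrast. With each group centred on its own mean over the 12 libraries, r with lin-42 was 0.726 for grh-1, 0.627 for blmp-1, 0.557 for kin-20, 0.324 for bed-3, 0.184 for nhr-25 and 0.115 for nhr-23, and -0.260 for elt-3. In the 6 U13A libraries blmp-1 had an r of -0.313 with lin-42, against 0.565 for grh-1 and 0.661 for kin-20.

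**Figure D4:**
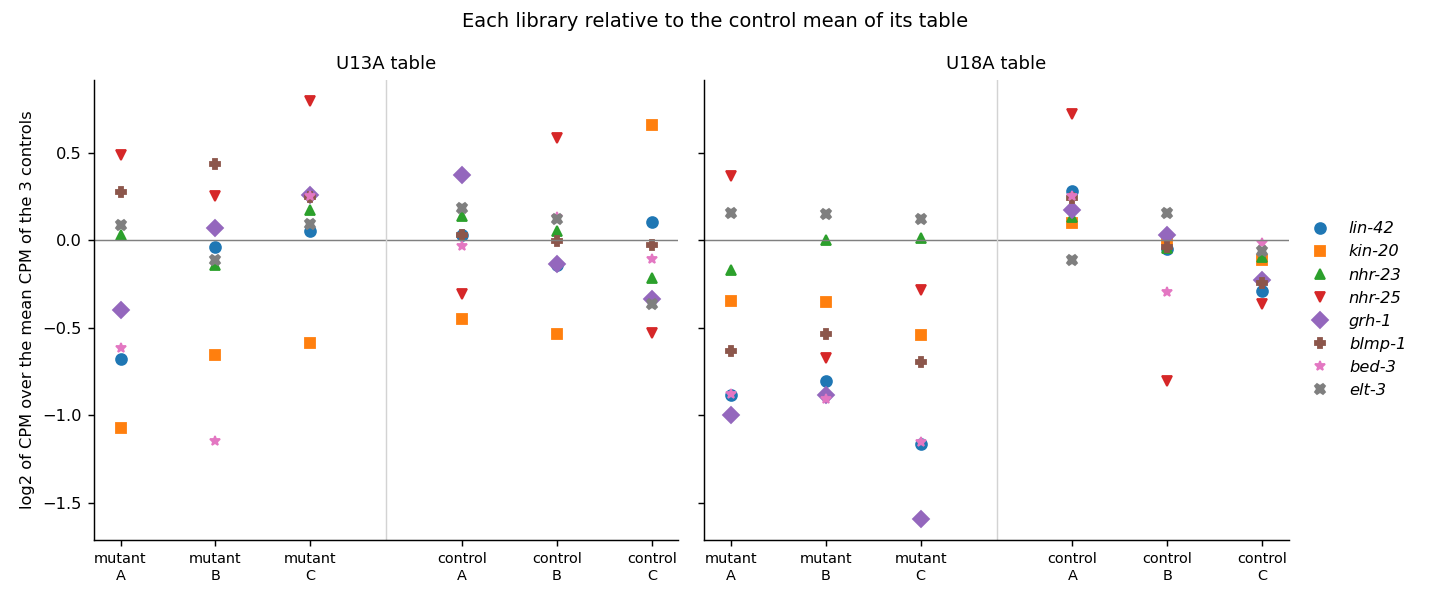
Log2 of each library's CPM over the mean of the 3 controls of its table, with 1 symbol per regulator and the U13A libraries left of the U18A libraries. In the U18A mutants lin-42, grh-1, bed-3, blmp-1 and kin-20 lie below 0 in each library while elt-3 lies above 0, and in the U13A mutants the symbols lie on both sides of 0.

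The genes whose level was most like that of lin-42 were sought among 5244 genes with a mean of at least 5 CPM in both tables, by Pearson r over 12 libraries with each table centred on its own mean. They were rol-8 (r 0.964), tub-2 (0.964), ptc-3 (0.960), cut-2 (0.960) and grl-5 (0.956). rol-8 encodes a cuticle collagen, ptc-3 a Patched homolog, cut-2 a cuticlin and grl-5 a hedgehog-related protein. With groups centred separately their r with lin-42 was 0.866 to 0.907. The 5 genes were picked for high r over these same libraries, so this range and their U18A values are descriptions that follow in part from the choice. In the U18A contrast cut-2 had 67.5 ± 10.3 CPM in mutants and 156 ± 24.0 CPM in controls (SD, n = 3 each), a log2 ratio of -1.21, and grl-5 had 51.8 ± 10.7 CPM in mutants and 136 ± 28.9 CPM in controls, a log2 ratio of -1.40. The log2 ratio was -1.82 for rol-8, -1.19 for ptc-3 and -0.32 for tub-2. By the same measure blmp-1 ranked 353 and kin-20 ranked 571, while grh-1, bed-3 and nhr-25 were below the CPM minimum in the U13A table.

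Other homologs of clock components were listed for comparison, and 2 of 6 tested fell in the U18A mutant and 0 rose, where 5.88% of all genes passed as lower. The median log2 ratio of the list in that contrast was 0.03, against 0.01 over all genes. In the U13A mutant 0 of 6 passed, where 1.55% of all genes did. nhr-85, a Rev-Erb homolog, had 1.19 ± 0.0476 CPM in U18A mutants and 3.18 ± 0.681 CPM in controls, a log2 ratio of -1.36 (SE 0.33, adjusted p 0.0113; 0.0696 without control A). tim-1, the timeless homolog, had 53.8 ± 3.40 CPM in mutants and 67.3 ± 2.92 CPM in controls, a change of -0.32 (SE 0.09, adjusted p 0.0277) that passed in 2 of 6 fits leaving out a library. Its log2 ratio in the U13A contrast was -0.30 (SE 0.14, adjusted p 0.421), and the difference between the contrasts was 0.05 (adjusted p 0.943). The list held 0 such genes without control A, and 1 without mutant B, mutant C or control B, with DESeq2 or with all 12 libraries in the fit. For nhr-85 the U13A change exceeded the U18A change by 1.70 (SE 0.43, edgeR adjusted p 0.0302). This call rests on the same low U18A mutant levels, and was absent with DESeq2 and in 9 of 12 fits leaving out a library. The genes aha-1, gsk-3, kin-19 and lin-23 did not pass in either contrast.

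Of 11 other regulators of moulting or epidermal fate, 3 fell in the U18A mutant and 8 did not pass, and 0 of 11 passed in the U13A mutant. Over all genes 5.88% passed as lower in the U18A contrast and 1.55% passed in the U13A contrast. pan-1, a leucine-rich repeat membrane protein that partners MYRF factors, had 28.6 ± 2.62 CPM in U18A mutants and 43.0 ± 4.70 CPM in controls, a log2 ratio of -0.58 (SE 0.11, adjusted p 0.00211). nhr-41, a nuclear receptor, had 10.6 ± 0.273 CPM in mutants and 17.4 ± 2.37 CPM in controls, a change of -0.71 (SE 0.14, adjusted p 0.00389). lin-29, a zinc finger factor of the heterochronic pathway, changed by -0.50 (SE 0.14, adjusted p 0.0288) and passed in 1 of 6 fits leaving out a library. For pan-1 the U13A change exceeded the U18A change by 1.00 (adjusted p 0.0018).

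The structural and enzymatic genes of moulting were listed as well. Like the other lists, this one was chosen with earlier results of these data known. An excess over all genes may follow in part from that choice. Of 25 genes 16 fell in the U18A mutant and 0 rose, with a median log2 ratio of -1.28 against 0.01 over all genes, and without mutant C 6 passed. Over all genes 5.88% passed as lower. In the U13A mutant 4 rose and 0 fell, where 1.55% of all genes passed, with a median of 0.25 against -0.01 over all genes. sym-1, a secreted leucine-rich repeat protein, had 10.2 ± 1.05 CPM in U18A mutants and 27.02 ± 6.58 CPM in controls, a change of -1.40 (adjusted p 6.8e-05). qua-1, a hedgehog-related gene, changed by -1.50 (adjusted p 2.5e-04), and ptr-4, a patched-related gene, by -1.28 (adjusted p 3.4e-04). In the U13A mutant the genes with the smallest adjusted p were fbn-1, a fibrillin-related gene, at 8.25 ± 1.16 CPM in mutants and 1.96 ± 0.193 CPM in controls, a change of 2.05 (adjusted p 7.0e-05), and noah-1 and noah-2, zona pellucida domain genes, with changes of 1.30 (adjusted p 2.7e-04) and 1.35 (adjusted p 6.7e-04). In the U18A mutant these fell, by 2.01 for fbn-1, 1.69 for noah-1 and 1.72 for noah-2. The remaining gene of the 4 that rose in the U13A mutant was sym-1, with a change of 1.26 (edgeR adjusted p 0.00199). The difference between the contrasts passed for 14 of 25 genes, each having the larger log2 ratio in the U13A contrast, and for 7 to 9 when U13A mutant B or C, U13A control B or C, or any of the U18A mutants was left out. Over all genes 1.96% passed for the difference, 231 of the 278 in that same direction. Of 6 steady reference genes 0 passed in either contrast, and their log2 ratios ran from -0.24 to 0.23 in the U13A contrast and from -0.13 to 0.12 in the U18A contrast.

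**Figure D5:**
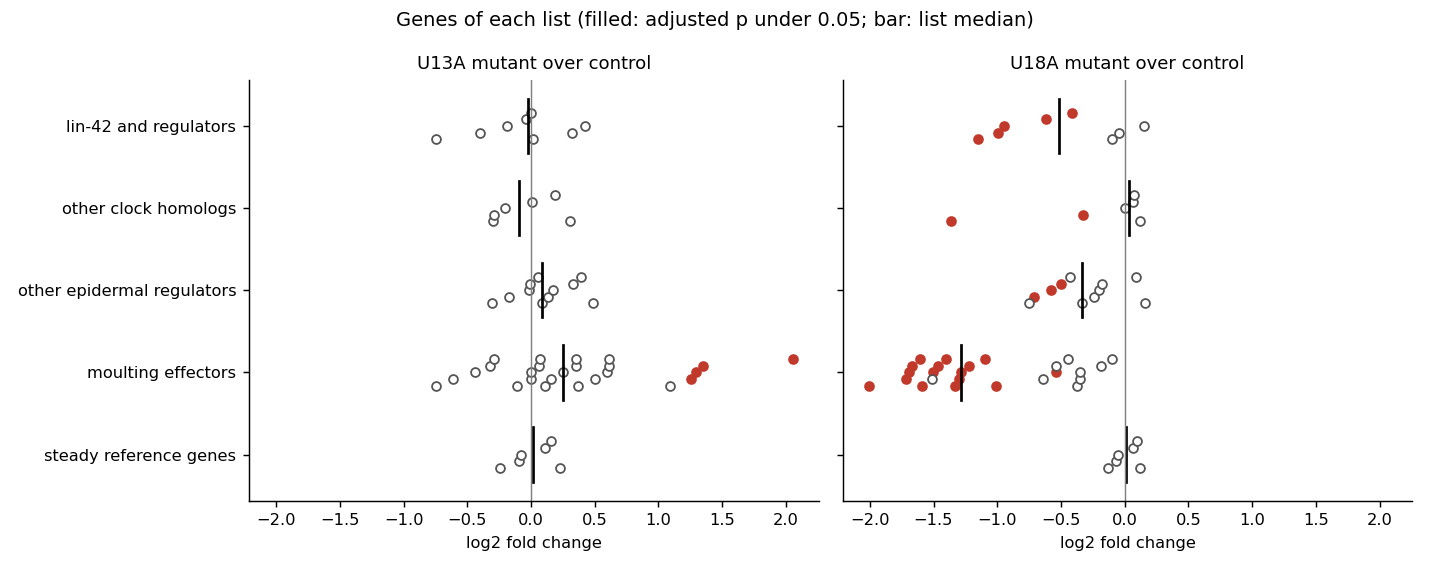
Log2 ratios, mutant over control, of the 8 regulators and of the genes on 4 other lists in the U13A and U18A contrasts; each point is a gene, filled where the adjusted p was under 0.05, and the bar is the list median. In the U18A contrast the members' median is -0.52 and that of moulting effectors -1.28, with steady reference genes close to 0, whereas in the U13A contrast no regulator is filled and 4 moulting effectors are filled above 0.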

How the data were processed

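Whole-larva RNA of 12 libraries was sequenced after ribosomal RNA depletion. The authors deposited raw counts of reads per gene in 2 tables, one per mutant with its control. Per the submitters' processing notes the tools were cutadapt 1.9, Bowtie2 2.3.4.3, featureCounts and Subread 1.6.2; the build, the annotation, strand use and the treatment of reads mapping to several places are not given in the sources used here. Each count column carried the name of 1 sample.

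Counts were tested with edgeR 4.0.16 in R 4.3.3 (glmQLFit with robust estimation, glmQLFTest, 2-sided), after filterByExpr (minimum count 10, total 15) and TMM scaling. The Benjamini-Hochberg adjustment ran over all genes tested, with a threshold of 0.05. Standard errors and 95% intervals came from the information matrix of the fit. The U13A and U18A contrasts used 6 libraries each, and their difference all 12. Each contrast was refitted with DESeq2 1.42.0, leaving out each library, blocking on the letter, using all 12 libraries and with RLE scaling. Further fits were unfiltered, kept genes averaging at least 10 counts, dropped the 10 entries of highest abundance or used protein-coding genes alone. A last setting applied a threshold of 0.01 to the main fit. Log2 CPM for correlations used a prior count of 2. The procedure was tested on simulated counts with known changes. No replicate pair was a duplicate, with a chi-square of at least 2.63 per degree of freedom.

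Named beside the 8 members were the 5 genes most like lin-42 and up to 3 genes per list and contrast with the smallest adjusted p; other genes named were chosen after their values were seen. Members and lists were chosen with earlier results of these data known. myrf-1 matched no entry, and mlt-2, mlt-3 and myrf-2 were matched by locus tag. Sequences were not analysed here.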

Additional observations from a re-analysis of the deposited data

Results flagged for a closer look

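blmp-1, the zinc finger factor gene, responded differently in the 2 mutants by a test of the difference itself. The U13A change exceeded the U18A change by 0.96 on the log2 scale (SE 0.18, edgeR adjusted p 0.00348), with adjusted p from 8.1e-05 to 0.0184 over 20 alternative settings. The U13A mutant averaged 10.9 ± 0.768 CPM and its control 8.73 ± 0.169 CPM, while the U18A mutant averaged 25.4 ± 1.46 CPM and its control 39.1 ± 6.64 CPM (SD, n = 3 each). The U13A change of blmp-1 did not pass in its own contrast (edgeR adjusted p 0.294). Of the 278 genes called for the difference, 231 went in the same direction. The U13A mutant also differs from its control in lin-41, and the 2 control strains differ, so the let-7 position and these differences cannot be told apart.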

How the results depend on the processing

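The 5 members called in the U18A contrast numbered 4 to 5 under every alternative setting, and their direction did not change. In the U13A contrast no member was called, except 1, kin-20, without the count filter (adjusted p 0.00511) and 1, also kin-20, with the replicate block (adjusted p 0.0434). For the difference 1 member was called, against 3 without the count filter (blmp-1, lin-42 and grh-1), 2 with the replicate block (blmp-1, and lin-42 at an adjusted p of 0.0460) and 1 to 3 when a library was left out. The letters did not pair the libraries: correlations of deviations between same-lettered mutants and controls ran from -0.033 to 0.124, so the block used a shared letter only. The estimate for elt-3 in the U13A contrast was near 0 and its sign turned to -0.00074 with RLE size factors, -0.0066 without the 10 most abundant entries and -0.0099 with protein-coding genes alone, the last an alternative added after seeing the data. When a library was left out, uncalled estimates crossed 0 in the U13A contrast for elt-3 (-0.12 to 0.092), lin-42 (-0.32 to 0.0146), nhr-23 (-0.069 to 0.092) and grh-1 (-0.19 to 0.20), in the U18A contrast for nhr-23 (-0.10 to 0.025) and nhr-25 (-0.40 to 0.40), and in the difference for kin-20 (-0.51 to 0.17) and nhr-23 (-0.023 to 0.15). Over all genes, 187 calls in the U13A contrast became 38 to 543 over the alternatives, 1036 in the U18A contrast 507 to 1429, and 278 in the difference 144 to 473. The causes were not tested. The depth of nhr-25, and of bed-3 in the U13A table, limits what could be detected.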
